A study of Mus musculus with 20 samples.

Results

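Acute phase and metallothionein genes were examined in the livers of 20 mice, as a set of 10 genes named by symbol among the 55487 genes of the count table. The set held the serum amyloid A genes Saa1, Saa2 and Saa3, the siderophore-binding lipocalin Lcn2, the orosomucoid genes Orm1 and Orm2, haptoglobin Hp, hemopexin Hpx, and the metallothioneins Mt1 and Mt2, and all 10 passed the filter on low counts in each comparison. The mice were female C57BL/6J, 8 weeks of age at the start and 28 weeks of age at collection, and 1 RNA library was made per liver. Chow mice (n = 5) ate chow throughout. The other mice ate a high-fat diet (HFD) and then, for the last 10 weeks, an HFD in which 50% of the protein came from salmon fishmeal made of by-products (Fishmeal, n = 5), from salmon filet (Salmon, n = 6 as labelled) or from beef (Beef, n = 4 as labelled), the rest of the protein being casein. No HFD group without a test protein was analysed here. The hepatocyte list of 10 genes was detected throughout, with a summed level of 105558 to 131088 CPM (reads of a gene scaled to a common library total) in Chow and 97683 to 127979 CPM in HFD livers. Mouse 31 was labelled Salmon but the header of its count column ends in Beef, so calls are also given with this mouse counted as Beef, which gives the equal group sizes that the study describes. Mouse 23 of the Salmon group had very high values for most of the set, and results are given with and without it.

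The acute phase response is the change in liver secretion that follows infection or injury, when cytokines of the IL-6 and IL-1 families act on hepatocytes through STAT3, NF-kB and C/EBP factors. Serum amyloid A proteins then bind to high-density lipoprotein, haptoglobin and hemopexin bind free haemoglobin and haem, lipocalin 2 withholds iron from bacteria by binding their siderophores, and orosomucoids are abundant carrier proteins of plasma. Metallothioneins are small cysteine-rich proteins that bind zinc and copper, and their genes respond to zinc through the factor MTF1 at metal response elements, and to glucocorticoids and cytokines.

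Saa3 (ENSMUSG00000040026, chr7:46711998-46715700), Saa1 (ENSMUSG00000074115, chr7:46740497-46742980) and Saa2 (ENSMUSG00000057465, chr7:46751790-46754313) lie in 1 cluster in the GRCm38 annotation. Orm1 (ENSMUSG00000039196, chr4:63344560-63348163) and Orm2 (ENSMUSG00000061540, chr4:63362449-63365878) are neighbours, as are Mt2 (ENSMUSG00000031762, chr8:94172664-94173568) and Mt1 (ENSMUSG00000031765, chr8:94179082-94180327). Hp (ENSMUSG00000031722, chr8:109575128-109579172), Lcn2 (ENSMUSG00000026822, chr2:32384633-32388252) and Hpx (ENSMUSG00000030895, chr7:105591613-105600137) stand apart. The 2 pairs that moved most closely together, Saa1 with Saa2 and Mt1 with Mt2, differ in how alike their promoters are, and their RefSeq promoter windows (GRCm38.p6, 250 bases before to 30 bases after the annotated start, printed in the direction of transcription) are shown for that reason. In the Saa windows the capitals mark the C/EBP core TTGCNNAA, and in the Mt windows they mark the metal response element cores TGCACNC and TGCGCNC, searched on both strands.
Saa1, chr7:46742951-46743230, minus strand: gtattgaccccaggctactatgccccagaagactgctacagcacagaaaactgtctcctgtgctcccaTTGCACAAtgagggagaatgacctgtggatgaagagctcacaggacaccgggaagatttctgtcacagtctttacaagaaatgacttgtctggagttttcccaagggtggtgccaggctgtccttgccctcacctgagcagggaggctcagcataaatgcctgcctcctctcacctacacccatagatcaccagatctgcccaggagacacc
Saa2, chr7:46751583-46751862, plus strand: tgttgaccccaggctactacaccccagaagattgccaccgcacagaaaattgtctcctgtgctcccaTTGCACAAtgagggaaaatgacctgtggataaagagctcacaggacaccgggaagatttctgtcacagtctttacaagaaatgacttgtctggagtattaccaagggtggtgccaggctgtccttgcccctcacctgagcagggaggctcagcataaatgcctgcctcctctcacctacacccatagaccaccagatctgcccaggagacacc
Mt1, chr8:94178839-94179118, plus strand: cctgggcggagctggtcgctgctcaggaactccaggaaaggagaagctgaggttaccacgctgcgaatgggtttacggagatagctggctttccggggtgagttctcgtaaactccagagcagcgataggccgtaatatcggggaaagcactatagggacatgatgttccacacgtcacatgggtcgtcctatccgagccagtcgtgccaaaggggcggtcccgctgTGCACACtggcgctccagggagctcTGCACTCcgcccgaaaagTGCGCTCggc
Mt2, chr8:94172368-94172647, plus strand: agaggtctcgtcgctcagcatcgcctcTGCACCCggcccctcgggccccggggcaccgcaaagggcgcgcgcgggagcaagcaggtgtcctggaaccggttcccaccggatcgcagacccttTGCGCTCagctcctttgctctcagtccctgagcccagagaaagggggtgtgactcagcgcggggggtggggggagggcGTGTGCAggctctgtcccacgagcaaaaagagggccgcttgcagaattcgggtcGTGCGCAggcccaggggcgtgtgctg

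The Saa1 and Saa2 windows were identical at 95% of 281 aligned columns and both held 1 C/EBP core at nearly the same distance from the start. Mt1 and Mt2 were identical at 49.4% of 336 columns, and held 3 and 4 metal response element cores. Of 32851 RefSeq promoter windows of this length, 10.4% held the C/EBP core, 24.1% held a metal response element core, 1.73% held at least 3 and 0.405% at least 4. RefSeq windows were found for 8 of the 10 genes. Lcn2, Orm2, Saa3 and Hpx each held 1 C/EBP core, and so did Mt2. None of the 8 held the STAT core TTCNNNGAA, which 7.83% of all windows held, and a match or its lack in so short a window is a description of the letters. Between transcripts, Saa1 and Saa2 were 87.3% identical and Orm1 and Orm2 91.0%, and 14.8% of the 50-base windows of Saa1, 20.4% of Orm1 and 22.7% of Orm2 occurred in another gene of their family, so counts could be divided between these genes. Mt1, Lcn2, Hp and Hpx held no shared window, while 45.5% of the windows of Mt2 lay in an antisense gene, Gm45774, on the opposite strand of a strand-specific library.

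Libraries held 42526234 to 70266136 counted reads. In 19 of them 93.2 to 95.6% of reads fell in protein coding genes and in mouse 35 (Beef) 84.3%. Replicates were separate mice. In bulk liver, fewer cells of a type and less RNA per cell cannot be told apart.

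Per transcript length, the set spanned a wide range of abundance in Chow livers. On the TPM scale, which divides by transcript length, the Chow mean was 4394 ± 575 (SD, n = 5) for Hpx, 2727 ± 521 for Orm1, 2602 ± 889 for Hp and 118 ± 54.5 for Orm2. Saa1 (29.1 ± 18.5 TPM), Mt1 (22.0 ± 7.84), Saa2 (17.2 ± 10.4) and Mt2 (13.6 ± 8.69) followed, and Lcn2 (4.69 ± 4.08) and Saa3 (3.21 ± 0.853) were lowest. In this order the Chow ranges of neighbours were separate only between Hpx and Orm1 and between Hp and Orm2, and overlapped for all other neighbours. Hpx also overlapped with Hp.

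**Figure D1:**
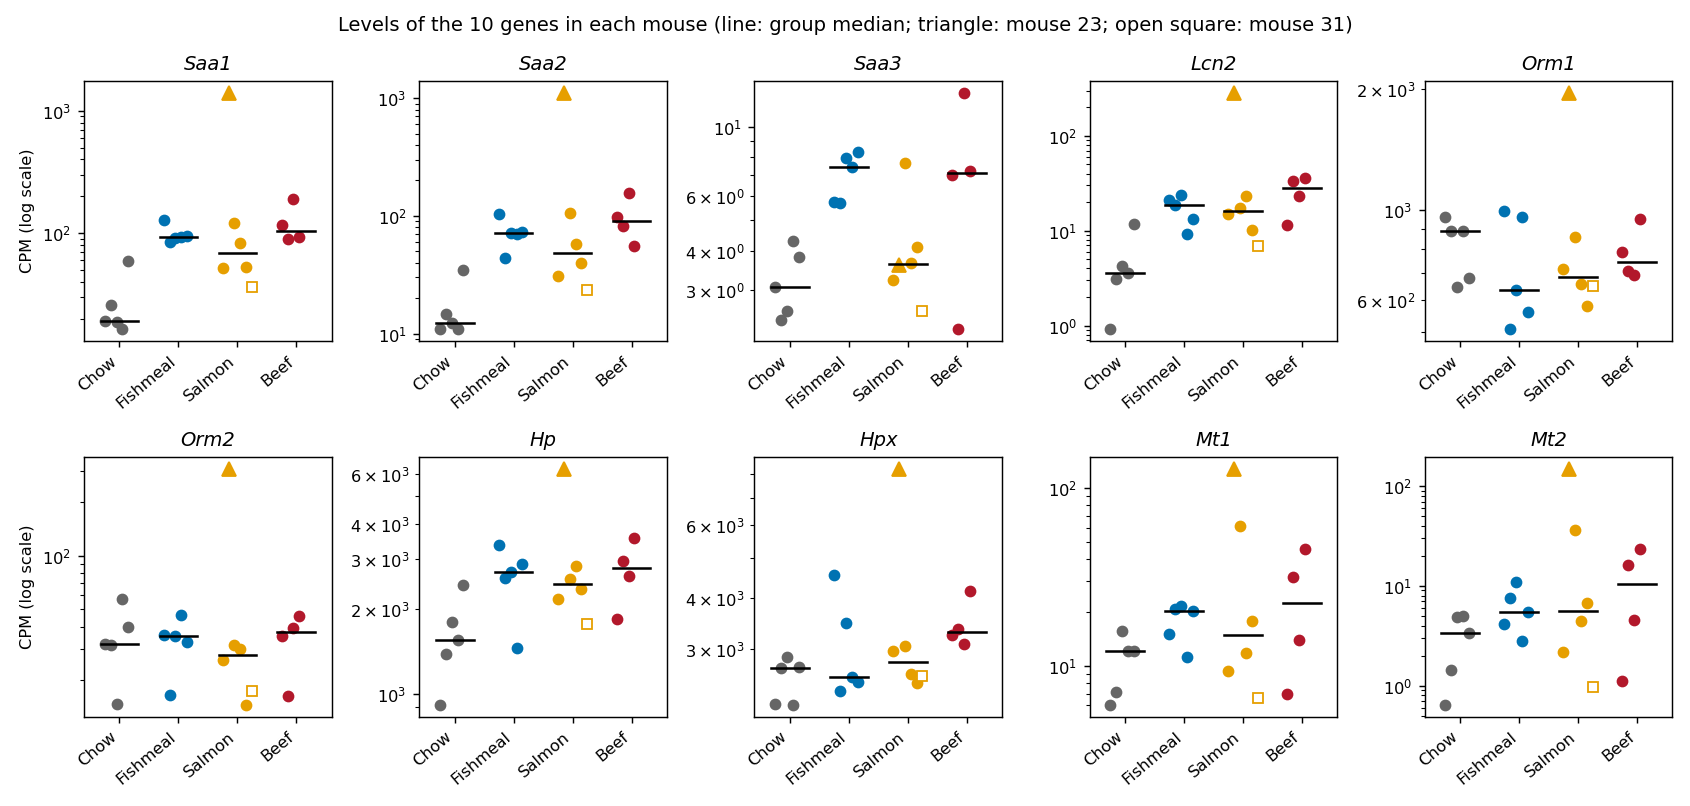
CPM (log scale) of each gene in each mouse by diet, where 1 point is 1 mouse, the line is the group median, the triangle is mouse 23 and the open square is mouse 31. Mouse 23 lies above all other mice in 9 of the 10 panels, and Saa1 and Saa2 are higher in every mouse labelled Fishmeal or Beef than in every Chow mouse, while mouse 31 lies below the highest Chow mouse for both.

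Saa1 and Saa2, the inducible serum amyloid A genes of liver, were higher in HFD livers. Saa1 was at 19.01, 25.8, 18.9, 16.4 and 58.6 CPM in Chow mice 1, 2, 5, 7 and 10, at 127, 84.7, 91.3, 93.6 and 95.4 CPM in Fishmeal mice 12, 13, 14, 16 and 20, and at 116, 89.3, 191 and 93.7 CPM in Beef mice 32, 35, 39 and 40. In the Salmon group the lowest value was 36.3 CPM (mouse 31), the median 68.3 and the highest 1400 CPM (mouse 23). No mouse labelled Fishmeal or Beef overlapped with Chow, as was so for 2.86% and 4.12% of all genes, whereas 3 of 6 Salmon mice lay below the highest Chow mouse. Mouse 31 was among these 3, so that Beef overlapped with Chow when it was counted there. Saa2 showed the same order, at 16.7 ± 10.1 CPM (SD, n = 5) in Chow, 72.4 ± 21.4 in Fishmeal (n = 5), 97.7 ± 41.99 in Beef (n = 4) and 51.3 ± 32.5 in Salmon without mouse 23 (n = 5), while mouse 23 stood at 1108 CPM. In HFD against Chow (15 against 5 mice, edgeR), the log2 fold change was 2.71 (SE 0.78, adjusted p = 0.0296) for Saa1 and 3.08 (SE 0.84, adjusted p = 0.0217) for Saa2. Without mouse 23 the differences were smaller and had smaller SE, at 1.77 (SE 0.33, adjusted p = 0.00158) and 2.11 (SE 0.39, adjusted p = 0.00127), which are folds of 3.42 and 4.33. All 15 HFD mice lay above the Chow mean for both genes.

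Saa3, which in mice is made mainly by macrophages and adipose tissue, was called in Fishmeal only among the HFD groups, and the difference between these groups was not called. It was at 2.39 to 4.29 CPM in Chow and 5.70 to 8.28 CPM in Fishmeal, with no overlap. Beef mice ranged from 2.24 CPM (mouse 35) to 12.8 CPM (mouse 39) and Salmon mice from 2.55 to 7.63 CPM with a median of 3.62. The mean was 7.32 CPM in Beef and 7.01 CPM in Fishmeal, and 3 of 4 Beef mice lay above all Chow mice. In Beef against Chow, Saa3 was called without mouse 35 (edgeR, adjusted p = 0.0204) and in 1 of 7 other settings (adjusted p = 0.0237). The HFD difference was 0.88 on the log2 scale (SE 0.32, adjusted p = 0.0805) and did not pass the test. Mouse 23, the highest mouse for Saa1 and Saa2, ranked 14 of 20 for Saa3 at 3.596 CPM. The macrophage and Kupffer cell list (16 genes) summed to 323 to 729 CPM in Chow and 301.3 to 609 CPM in HFD livers, with overlapping ranges, and its part in the Saa3 values was not tested.

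Lcn2, the siderophore-binding lipocalin, was also higher in HFD livers. It was at 0.916, 3.12, 4.23, 3.61 and 11.8 CPM in the 5 Chow mice, in the order above, at 9.24 to 23.9 CPM in Fishmeal and at 11.6 to 36.1 CPM in Beef. Salmon mice ranged from 6.85 CPM with a median of 16.2 to 284 CPM in mouse 23. Mouse 10 was the highest Chow mouse for Lcn2, Saa1, Saa2 and Hp, and 11 of 15 HFD mice lay above it for Lcn2. The log2 fold change in HFD against Chow was 2.95 (SE 0.86, adjusted p = 0.0315), and 1.99 (SE 0.44, adjusted p = 0.00644) without mouse 23. Lcn2 protein is also stored in neutrophils, and of 13 neutrophil markers only Csf3r had a mean of at least 1 CPM. Their sum was 5.56 to 7.92 CPM in Chow and 3.52 to 7.67 CPM in HFD livers, with overlapping ranges. Of the 5 markers tested Mmp9 was called as lower in HFD (-0.93, adjusted p = 0.0293) and none as higher, beside 9.75% of all genes called in either direction. In mouse 23 the markers S100a8 and S100a9 were the highest of 20 mice, at 0.947 and 1.123 CPM, as was Elane at 0.263 CPM, and Ly6g was at 0 counts. Prtn3, a neutrophil granule gene outside the list and named after its values were seen, stood at 17.9 CPM in mouse 23 and at most 0.881 CPM elsewhere. The part of neutrophils in the Lcn2 values was not tested.

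Hp and Hpx, the scavengers of haemoglobin and haem, were among the most abundant of the set, and Hp was higher in HFD livers by less than 2-fold. Hp was at 915, 1381, 1794, 1548 and 2419 CPM in the Chow mice, in the order above, and the 15 HFD mice had a median of 2611 CPM, from 1456 to 6261 CPM. Its fold was 1.73 in HFD against Chow (log2 0.79, SE 0.25, adjusted p = 0.0495) and 1.58 without mouse 23 (log2 0.66, SE 0.20, adjusted p = 0.0363). This call held in 6 of 20 fits with 1 mouse removed (adjusted p up to 0.170) and in 2 of 6 other settings, and 10 of 15 HFD mice lay above the highest Chow mouse. Hpx was at 2199 to 2871 CPM in Chow and 2375 to 8237 CPM in HFD, and its log2 difference was 0.43 (SE 0.22, 95% CI -0.03 to 0.89, adjusted p = 0.247), which did not pass the test. The 4 mice labelled Beef (3098 to 4160 CPM) were all above the Chow mice, and mouse 31 (2589 CPM) was not.

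Orm1 and Orm2, the orosomucoid genes, were called in no comparison by edgeR. Orm1 had a mean of 813 ± 142 CPM in Chow (n = 5) and 733 ± 156 CPM (SD) in the 14 HFD mice other than mouse 23, and its log2 fold change was 0.00 (95% CI -0.46 to 0.46, adjusted p = 0.999). Orm2 was at 14.6 to 57.2 CPM in Chow and at 14.5 to 46.6 CPM in the same 14 mice, and its log2 difference was 0.49 (95% CI -0.70 to 1.67, adjusted p = 0.653) over all mice and -0.21 (SE 0.27, adjusted p = 0.699) without mouse 23. The sign of Orm2 turned when mouse 23 was left out and no other mouse, and that of Orm1 turned in 7 of 20 fits that each left out 1 mouse. Mouse 23 stood at 1956 CPM for Orm1 and 310 CPM for Orm2.

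Mt1 and Mt2, the metallothioneins, varied most of the set between mice of 1 diet when mouse 23 was left out. Mt2 was at 0.641, 1.44, 4.90, 5.03 and 3.38 CPM in the Chow mice, at 4.19, 7.53, 10.9, 2.80 and 5.44 CPM in the Fishmeal mice, and at 1.121, 16.3, 4.55 and 23.4 CPM in the Beef mice, each in the order above. Salmon mice ranged from 0.960 CPM (mouse 31) with a median of 5.59 to 36.2 CPM (mouse 25) and 150 CPM (mouse 23). Every group thus overlapped with Chow. Without mouse 23 the SD of Mt2 within diets was 1.53 on the log2 CPM scale, above 99.8% of 12695 genes with a mean of at least 1 CPM, whose median was 0.23. That of Mt1 was 0.91, Lcn2 0.88, Saa2 0.66, Saa1 0.58 and Hpx 0.25. The HFD difference was 1.41 on the log2 scale (SE 0.59, adjusted p = 0.137) for Mt1 and 2.60 (SE 1.05, adjusted p = 0.125) for Mt2, and 0.98 (adjusted p = 0.170) and 1.56 (adjusted p = 0.186) without mouse 23, so neither passed the test in either case.

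In HFD against Chow, 4 of the 10 genes were called at an adjusted p under 0.05 (Saa1, Saa2, Lcn2 and Hp), all higher in HFD, against 9.75% of the 17120 genes tested in either direction and 4.54% in the higher direction. The same 4 were called without mouse 23, when 9.75% of all genes were called and 4.58% as higher. The median log2 fold change of the 10 genes was 1.143, and that of all genes 0.00. Left-out Chow mice moved the count most: it was 0 without mouse 1, 2 or 7, 1 without mouse 5 and 4 without mouse 10. Over the 20 fits that each left out 1 mouse, Saa2 was called in 17 and Saa1 and Lcn2 in 16, and the log2 fold change of Saa1 stayed between 1.77 and 3.18.

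**Figure D2:**
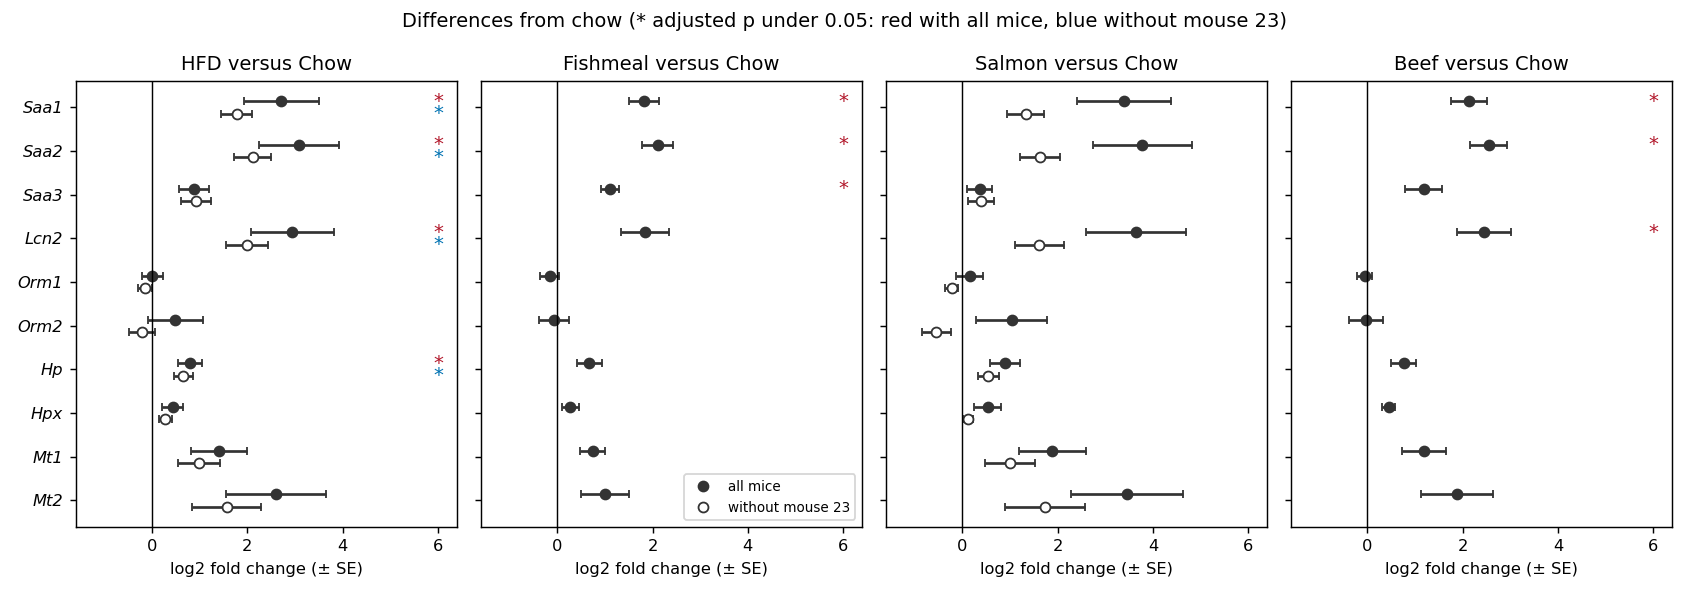
Log2 fold changes with their SE against Chow for each gene, with all mice (filled) and without mouse 23 (open), which concerns only the comparisons that hold the Salmon group. Groups are as labelled. Saa1 and Saa2 carry a mark in HFD, Fishmeal and Beef but not in Salmon. There the fold change of Saa1 falls from 3.39 to 1.33 without mouse 23. With mouse 31 counted as Beef, Saa2 was called in Salmon too, with or without mouse 23.

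Each HFD group was also compared with the same 5 Chow mice, so these comparisons are not independent. In Fishmeal, 3 genes were called (3.38% of 16471 genes were called, 1.44% as higher): Saa1 at 1.81 (SE 0.32, adjusted p = 0.00829), Saa2 at 2.11 (SE 0.33, adjusted p = 0.00474) and Saa3 at 1.11 (SE 0.19, adjusted p = 0.00695). These 3 did not overlap with Chow, as was so for 2.86% of genes, and were called in all 10 fits that left out 1 mouse. Lcn2 was at 1.85 (SE 0.50, adjusted p = 0.0667). In Beef, 3 genes were called (2.48% of 16559 genes, 1.17% as higher): Saa1 at 2.13 (SE 0.38, adjusted p = 0.0168), Saa2 at 2.54 (SE 0.39, adjusted p = 0.00922) and Lcn2 at 2.45 (SE 0.57, adjusted p = 0.0477). Over the 9 fits that each left out 1 mouse, Saa2 was called in 9, Saa1 in 8 and Lcn2 in 3 (adjusted p of Lcn2 up to 0.139), and without Chow mouse 2 only Saa2 was called. Saa1, Saa2 and Hpx did not overlap between Beef as labelled and Chow, as was so for 4.12% of genes. With mouse 31 counted as Beef all 3 overlapped, Saa1 and Saa2 were called and Lcn2 was not (adjusted p = 0.0689). Fitted over all 4 groups with mouse 23 among them, 0 genes were called in Fishmeal or Beef.

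In Salmon against Chow the edgeR test called 0 of the 10 genes (4.46% of 16605 genes were called), although 6 had an unadjusted p under 0.05. The log2 fold change was 3.77 for Saa2 (SE 1.04, adjusted p = 0.0572) and 3.65 for Lcn2 (SE 1.05, adjusted p = 0.0656). For Saa1 it was 3.39 (SE 0.99, adjusted p = 0.0680). Without mouse 23 these were 1.63 for Saa2 (adjusted p = 0.0551), 1.62 for Lcn2 (adjusted p = 0.100) and 1.33 for Saa1 (adjusted p = 0.0771). Then 0 of the 10 genes were called, beside 3.54% of all genes, and 4 had an unadjusted p under 0.05. Mt2 averaged 33.5 CPM in Salmon with mouse 23, 10.1 CPM without it and 3.08 CPM in Chow. The medians were 5.59, 4.49 and 3.38 CPM in the same order. Its log2 fold change without mouse 23, 1.73 (SE 0.84, adjusted p = 0.269), was the largest of the set. Saa2 alone was called with mouse 31 counted as Beef, with or without mouse 23. DESeq2 called 1 gene, Mt2, of the 6 to which it gave an adjusted p, and limma on TPM called 0.

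Between the HFD groups, which differed in the protein source, 0 of the 10 genes were called by edgeR, DESeq2 or limma. DESeq2 gave an adjusted p to only 6 of the 10 in Fishmeal against Salmon and in Salmon against Beef, and none to Saa1, Saa2, Lcn2 and Orm2. Over all genes, 0.157% of 16548 were called in Fishmeal against Salmon, 0.00607% of 16480 in Fishmeal against Beef and 0% of 16509 in Salmon against Beef. In Fishmeal against Salmon, Saa3 (0.76, SE 0.23) and Mt2 (-2.44, SE 1.06) had an unadjusted p under 0.05, and none of the genes did in the other 2 comparisons. Mouse 23 set the direction of most of these differences: that of Saa1 between Fishmeal and Salmon was -1.56 with it and 0.51 without it, and that between Salmon and Beef was 1.251 with it and -0.81 without it. Without mouse 23, 0 of the 10 genes were called in these comparisons, beside 0.219% of all genes in Fishmeal against Salmon and 0% in Salmon against Beef, while Saa1, Saa2, Lcn2 and Hpx had unadjusted p under 0.05 in Salmon against Beef, all lower in Salmon (adjusted p = 0.9998 for each). Fishmeal is rich in zinc, and the metallothioneins were therefore also read in Fishmeal against the other 2 proteins. Without mouse 23 the log2 difference from Salmon was -0.25 (SE 0.50) for Mt1 and -0.71 (SE 0.75) for Mt2, and Saa3 alone had an unadjusted p under 0.05 there. From Beef it was -0.46 (SE 0.42, 95% CI -1.38 to 0.47) for Mt1 and -0.88 (SE 0.65, 95% CI -2.30 to 0.54) for Mt2. These intervals hold 0 and reach past a level 2-fold lower in Fishmeal. With mouse 31 counted as Beef the differences were smaller, at -0.23 for Mt1 and -0.59 for Mt2, and limma on log2(TPM + 1) gave -0.12 and -0.25.

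**Figure D3:**
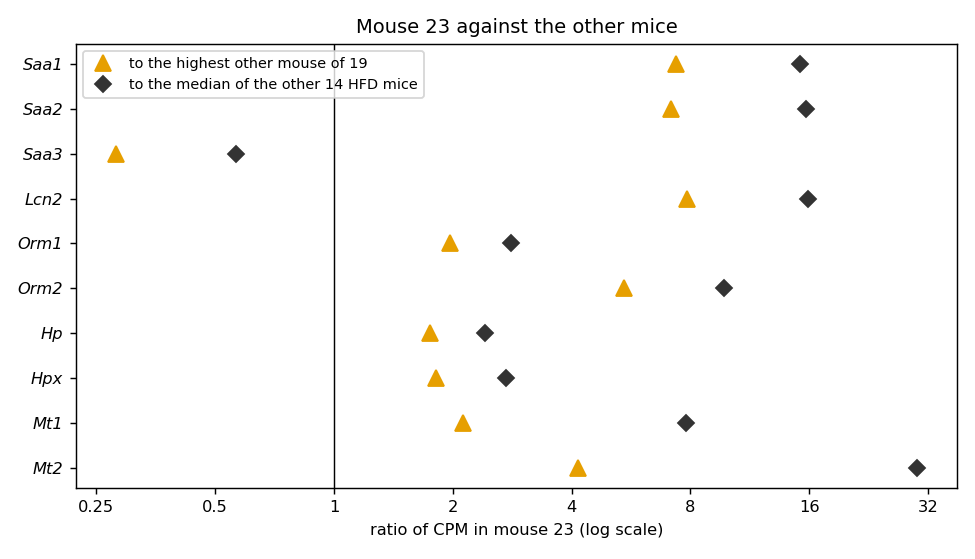
Ratio of the CPM of mouse 23 to the highest of the other 19 mice (triangles) and to the median of the other 14 HFD mice (diamonds), on a log scale. All genes but Saa3 lie to the right of 1, with Lcn2, Saa1 and Saa2 above 7 against the highest other mouse.

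Mouse 23, which carried the Salmon label, was the highest of 20 mice for 9 of the 10 genes. Lcn2 was 7.86 times the next highest mouse, Saa1 7.34 times, Saa2 7.14 times, Orm2 5.43 times, Mt2 4.15 times and Mt1 2.12 times. Orm1, Hpx and Hp were 1.97, 1.81 and 1.75 times the next highest. Across the liver the mouse was not extreme: it was the highest of 20 for 4.72% and the lowest for 3.55% of the genes tested, and its library held 60432246 counted reads, within the range of the others. Among 12695 genes with a mean of at least 1 CPM over all mice, mouse 23 included, 29 were more than 2-fold above every other mouse in mouse 23. Each of the other mice had 0 to 12 such genes. Of the 29, 6 belong to the set. Mouse 23 was already known for very high values of these genes, so these 6 only restate its levels. Of 34 other positive acute phase genes 19 were highest in this mouse, among them C-reactive protein Crp, the fibrinogen chains Fga, Fgb and Fgg, and C3. Of 27 genes of acute phase signalling 11 were highest there, among them Stat3, Il6st, Osmr, Socs3 and Cebpd. Alb, the albumin gene that falls in an acute phase response, was lowest of 20 in this mouse, and it was the only gene so among the 12 negative acute phase genes. None of the 15 glucocorticoid responsive genes was highest there. These are values of a single mouse.

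Within diets, some of the genes varied together. After subtraction of each diet mean from log2 CPM, 45 pairs were correlated over 20 mice, with p from 100000 permutations within diets, adjusted by Benjamini-Hochberg over the pairs. With all mice 21 pairs passed for Pearson's r and 11 for Spearman's rho, and without mouse 23 the count was 9 for each. Mt1 and Mt2 moved closely together (r = 0.984, rho = 0.985, adjusted p = 0.00015 for each by permutation), also without mouse 23 (r = 0.974, rho = 0.981) and without the 2 mice farthest from the median of Mt1 (r = 0.968). Saa1 and Saa2 had r = 0.986 and rho = 0.913 (r = 0.947 and rho = 0.870 without mouse 23, r = 0.949 without the 2 mice farthest from the median of Saa1), and the part of reads divided between their similar transcripts was not tested. Lcn2 and Hp, which share no sequence window, had r = 0.930 and rho = 0.908 (adjusted p = 0.00015 for each), with r = 0.896 and rho = 0.828 without mouse 23 and r = 0.859 without the 2 mice farthest from the median of Lcn2. Hp and Lcn2 also varied with the metallothioneins: without mouse 23 rho was 0.712 for Hp with Mt1 (adjusted p = 0.0187), 0.653 for Hp with Mt2, 0.721 for Lcn2 with Mt1 and 0.661 for Lcn2 with Mt2, and r without the 2 farthest mice was 0.603, 0.608, 0.550 and 0.598 in the same order. By rho, no pair of a Saa gene with Lcn2, Hp, Mt1 or Mt2 passed with or without mouse 23. By r over 20 mice, Saa1 and Saa2 each passed with Lcn2 and with Hp (adjusted p up to 0.0303). Without mouse 23 none of these pairs passed by r. Saa1 with Lcn2 had r = 0.831 (adjusted p = 0.0237) over 20 mice and rho = 0.408 (adjusted p = 0.198), and without mouse 23 rho was 0.281 and r was 0.520 (adjusted p = 0.262 for r). This pair thus passed by r only with that mouse, and r was 0.548 without the 2 mice farthest from the median of Saa1. Saa1 with Mt1 had rho = 0.0035 without mouse 23. Saa3 varied with Orm2 (r = 0.638 and rho = 0.681 without mouse 23, adjusted p = 0.0316 and 0.0307), but did not pass over all 20 mice (adjusted p = 0.214 and 0.0581).

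**Figure D4:**
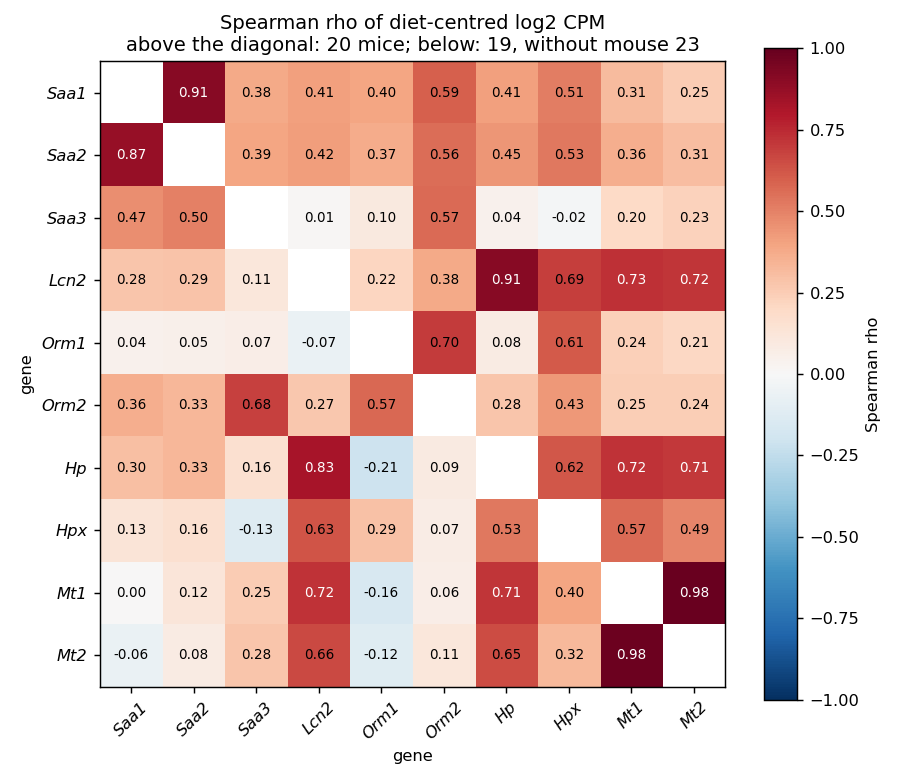
Spearman's rho of diet-centred log2 CPM for each pair, over 20 mice above the diagonal and over 19 mice without mouse 23 below it. The pairs Saa1 with Saa2 (0.87), Lcn2 with Hp (0.83) and Mt1 with Mt2 (0.98) stay high below the diagonal, and the pairs that join the Saa genes to Lcn2, Hp and the metallothioneins lie at most at 0.45 above it and 0.33 below it.

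Genes of the circadian clock moved with the metallothioneins. The 12 clock genes were chosen after their values were seen. The share of all genes that would pass with them was not computed. The counts of pairs below therefore compare only genes of the set. Of 120 pairs of a gene of the set with a clock gene, Mt1 passed for 10 of the 12 and Mt2 for 7, Hp for 1 and the other 7 genes for 0, counting pairs with an adjusted p under 0.05 for both r and rho, and without mouse 23 the counts were 9, 9, 3 and 0. Mt1 rose with Dbp (r = 0.799, rho = 0.809, adjusted p = 0.00528 and 0.0024) and fell with Cry1 (r = -0.742, rho = -0.791, adjusted p = 0.0006 for each) and Arntl (r = -0.690, rho = -0.755, adjusted p = 0.019 and 0.00347). Without the 2 mice farthest from the median of Mt1, r was 0.727, -0.724 and -0.687. In HFD against Chow 9 of the 12 clock genes were called, beside 9.75% of all genes. As the 12 were picked after their values were seen, this count only describes them. Among them were Dbp at 4.70 (SE 1.00, adjusted p = 0.00423), Nr1d1 at 1.71 (SE 0.54, adjusted p = 0.0476) and Cry1 at -0.92 (SE 0.28, adjusted p = 0.0424). The time of day at which each liver was taken is not given in the sources used here, and its part in the metallothionein and haptoglobin values was not tested.

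**Figure D5:**
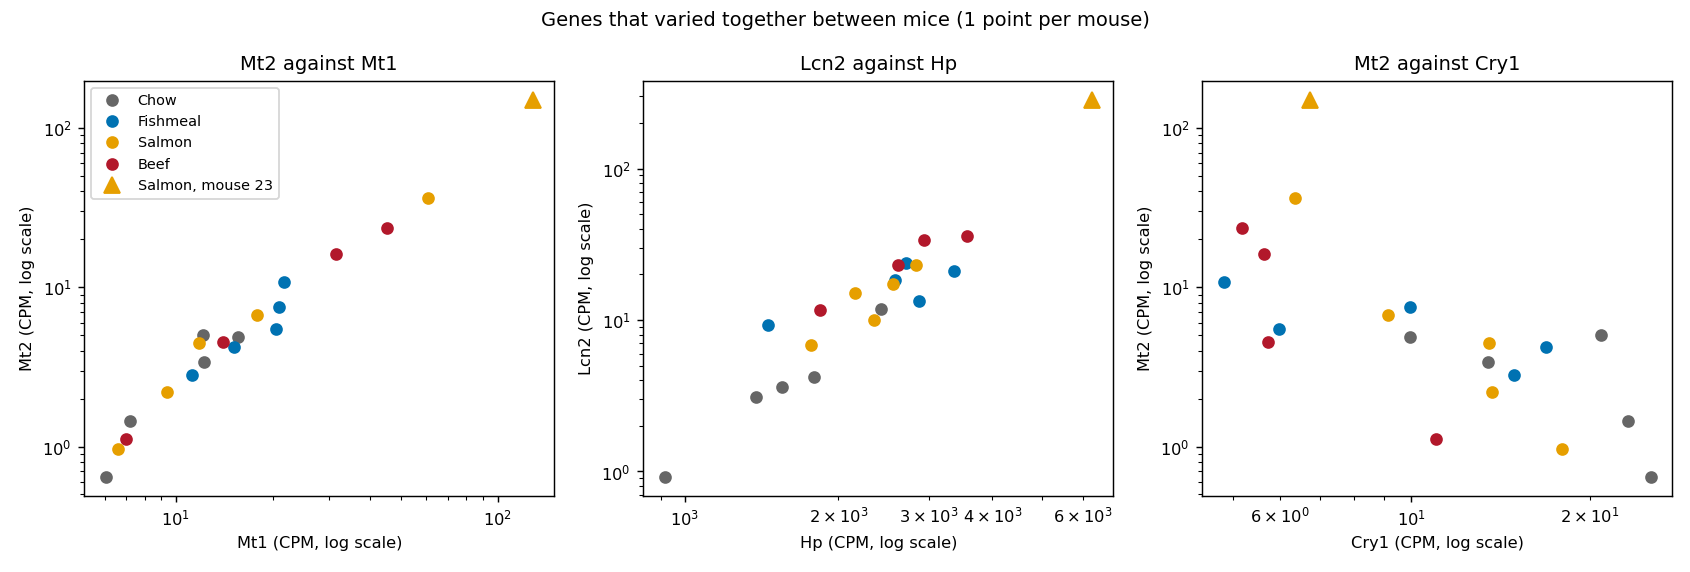
CPM of Mt2 against Mt1, of Lcn2 against Hp and of Mt2 against the clock gene Cry1, each on log scales with 1 point per mouse coloured by diet. Mt2 rises with Mt1 and Lcn2 with Hp across the diets (r within diets 0.984 and 0.930), and Mt2 falls as Cry1 rises (r within diets -0.743).

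Other genes of the acute phase response were read from fixed lists. Of 34 other positive acute phase genes tested, 11 were higher and 1 was lower in HFD against Chow, beside 9.75% of all genes called and 4.54% higher, with a median log2 fold change of 0.22 against 0.00 over all genes. Without mouse 23 the counts were 12 and 1. Serpina3m, a serine protease inhibitor, was at 384 ± 22.5 CPM in Chow (n = 5) and 596 ± 67.5 CPM in HFD (n = 15), and differed by 0.64 on the log2 scale (adjusted p = 0.000106). Saa4, the constitutive serum amyloid A gene, was at 243 ± 46.2 and 467 ± 157 CPM (0.95, adjusted p = 0.00415). F3, the gene of tissue factor, rose by 0.49 (adjusted p = 0.0086) and C4b, a complement component, by 0.79 (adjusted p = 0.0145). Chil1, a chitinase-like gene, rose by 3.06 (adjusted p = 0.000255) from a mean of 0.0772 CPM, and Serpina1e, which belongs to a family of near-identical copies, fell by 2.72 (adjusted p = 0.00124) with a wide spread in Chow (329 ± 340 CPM). Of the 12 negative acute phase genes, which fall in an acute phase response, 2 were higher, Serpina6 (0.77, adjusted p = 0.0127) and Serpina7 (0.62, adjusted p = 0.0279), and 0 were lower. Without mouse 23 the same 2 were higher and Fetub was lower, which with all mice was at -0.31 (adjusted p = 0.0547).

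Of 27 genes of acute phase signalling, 2 were higher and 2 lower in HFD, with or without mouse 23, beside the same 9.75% of all genes called and 4.54% higher. Lifr, a receptor subunit for cytokines of the IL-6 family, was at 471 ± 62.8 CPM in Chow and 245 ± 40.0 CPM in HFD (-0.94, adjusted p = 4.6e-06), and Il1b, which codes for interleukin 1 beta, was at -0.67 (adjusted p = 0.0178). Il1rap, the accessory subunit of the IL-1 receptor, rose by 0.45 (adjusted p = 0.00377) and Cebpa by 0.48 (adjusted p = 0.0297). Stat3, Socs3 and Il6ra were not called. Of 11 genes of haemoglobin, haem and siderophore scavenging, Cd36 was higher (0.96, adjusted p = 0.00391) and Fpr2 lower (-0.999, adjusted p = 0.0414), and without mouse 23 Fpr2 was not called.

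Of 29 genes of zinc and copper handling, 2 were higher and 0 lower in HFD, with or without mouse 23, a share near the 4.54% of all genes called as higher. Slc39a5, a zinc importer, was at 0.483 ± 0.183 CPM in Chow and 2.87 ± 1.65 CPM in HFD (2.57, adjusted p = 0.000214), and Atp7b, the copper ATPase of hepatocytes, was at 43.2 ± 7.28 and 59.8 ± 6.57 CPM (0.47, adjusted p = 0.00298). Mtf1, which codes for the zinc sensor of the metallothionein genes, was at -0.07 (adjusted p = 0.7105) and Slc30a1, another of its targets, at -0.03 (adjusted p = 0.894). Of 15 glucocorticoid responsive genes, the receptor gene Nr3c1 was higher (0.28, adjusted p = 0.0189) and Gadd45b lower (-1.32, adjusted p = 0.00766), beside 9.75% of all genes called in either direction. None of the genes of these lists was called between HFD groups. Of the markers of other cells, 6 of 9 tested for T and B lymphocytes were lower in HFD, with a summed level of 7.13 to 14.5 CPM in Chow and 2.94 to 7.53 CPM in HFD livers. Macrophages had 1 of 16 called (Trem2, higher), red blood cells 1 of 5 (Alas2, higher), cholangiocytes 1 of 6 (Sox9, lower) and endothelial cells 1 of 6 (Clec4g, lower), and hepatocytes (10), stellate cells (8) and adipocytes (1) had 0. The same 9.75% of all genes stands beside these marker counts, and a single called gene in so short a list is not read as a result.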

How the data were processed

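Liver RNA of 20 mice was sequenced from strand-specific mRNA libraries. The authors aligned reads with HISAT2 (1.2.1) and counted them per gene with featureCounts (1.4.6-p1), per the labels, which name the build GRCh38 although the samples are mouse. The strand setting of the counting is not given in the sources used here. The deposited read counts were unnormalised whole numbers, and the deposited TPM values matched them (count over TPM was proportional across libraries for 100% of 10432 genes). Groups followed the sample labels.

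Counts were scaled by TMM, filtered with filterByExpr (minimum count 10) and tested with edgeR's quasi-likelihood test (4.0.16, R 4.3.3), with Benjamini-Hochberg adjustment over all genes tested and a threshold of 0.05. CPM values are TMM-scaled. Alternatives used DESeq2 (1.42.0), its size factors, all genes with at least 1 count, limma (3.58.1) on log2(TPM + 1) of genes whose TPM averaged 0.5 or more, a fit of all 4 groups, robust dispersions, other handling of mice 23, 31 and 35, and each mouse left out. Correlations used log2 CPM with a prior count of 2. Tests were checked on simulated data.

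All 10 genes were named whatever their values, as were the called genes of each list (up to 6 with the smallest p). The genes and lists were chosen with earlier results of these data known. Positions are from the GRCm38 annotation and promoters from RefSeq.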

Additional observations from a re-analysis of the deposited data

Results flagged for a closer look

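Outlying mice were sought on the log2 CPM scale in each of 40 combinations of a gene and a diet group. The gap between the most extreme mouse and its nearest neighbour was divided by the range of the group. This ratio was read against Dixon's 95% critical value, which chance passes in about 1 of 20 groups. The value passed in 7 of the 40. Mouse 23 was the extreme mouse of the Salmon group in 6 of them, with a ratio of 0.670 for Saa1, 0.674 for Lcn2, 0.676 for Orm1, 0.749 for Orm2, 0.629 for Hp and 0.826 for Hpx. These 6 come from 1 library, and this mouse was already known for very high values of these genes, so the chance rate does not apply to them and they only restate its levels. In the Chow group mouse 10 stood above the others for Saa2 with a ratio of 0.747, at 34.5 CPM where the next Chow mouse was at 14.6 CPM.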

How the results depend on the processing

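The number of the 10 genes called depended on the setting in each comparison with Chow. In HFD against Chow it was 4, and 1 with robust dispersions. In Fishmeal and in Beef against Chow it was 3, and 0 in a fit of all 4 groups, and in Beef it was 5 with DESeq2. In Salmon against Chow it was 0, but 1 with DESeq2, 3 on all genes with at least 1 count, 3 in a fit of all 4 groups, and 1 with mouse 31 counted as Beef, with or without mouse 23. The last setting without mouse 23, and the one without mice 23 and 35, were chosen after seeing the data. With each mouse left out the count ran from 0 to 5 in HFD, 3 to 4 in Fishmeal, 0 to 1 in Salmon (1 without mouse 31) and 1 to 3 in Beef against Chow, from 0 to 1 in Fishmeal against Salmon (Saa3, without mouse 25), and stayed at 0 in the other comparisons. The cause was not tested.

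Log2 fold changes that turned sign belonged to genes that were not called. In HFD against Chow, Orm1 was at -0.12 with limma, -0.017 in the fit of all 4 groups and -0.15 without mice 23 and 35, and Orm2 at -0.20 with DESeq2 and -0.16 without mice 23 and 35. In Fishmeal against Beef, limma gave 0.13 for Saa3 and 0.026 for Orm2, and mouse 31 counted as Beef gave 0.14 for Saa3, 0.11 for Orm2 and 0.024 for Hp. In Salmon against Beef, limma gave -0.031 for Saa1 and -0.15 for Saa2. Without mouse 23 and with mouse 31 as Beef, Salmon against Chow was at -0.20 for Orm1 and -0.45 for Orm2, Fishmeal against Salmon at 0.33 for Saa1, 0.30 for Saa2, 0.054 for Lcn2, 0.039 for Orm1, 0.38 for Orm2, 0.052 for Hp and 0.13 for Hpx, and Salmon against Beef at -0.43 for Saa1, -0.50 for Saa2, -0.43 for Lcn2, -0.094 for Orm1, -0.27 for Orm2, -0.033 for Hp and -0.23 for Hpx. Without mice 23 and 35, Salmon against Beef was at -0.94 for Saa1, -1.003 for Saa2, -0.70 for Lcn2, -0.23 for Orm1, -0.76 for Orm2, -0.20 for Hp, -0.35 for Hpx and -0.054 for Mt1.

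With each mouse left out, 28 of 70 pairs of a gene and a comparison changed sign, 0 of them called. In HFD against Chow, Orm1 ran from -0.15 to 0.070 and Orm2 from -0.21 to 0.73. Orm2 ran from -0.26 to 0.18 in Fishmeal, -0.55 to 1.29 in Salmon and -0.22 to 0.22 in Beef against Chow, and Orm1 from -0.22 to 0.25 in Salmon and -0.17 to 0.00075 in Beef against Chow. In Fishmeal against Salmon, Saa1 ran from -1.81 to 0.51, Saa2 from -1.90 to 0.50, Lcn2 from -2.03 to 0.25, Orm1 from -0.44 to 0.079, Orm2 from -1.31 to 0.49, Hp from -0.33 to 0.15 and Hpx from -0.43 to 0.17. In Fishmeal against Beef, Saa3 ran from -0.36 to 0.35, Orm1 from -0.23 to 0.0050, Orm2 from -0.27 to 0.13, Hp from -0.23 to 0.072 and Mt1 from -0.77 to 0.030. In Salmon against Beef, Saa1 ran from -0.81 to 1.56, Saa2 from -0.92 to 1.54, Lcn2 from -0.84 to 1.42, Orm1 from -0.17 to 0.32, Orm2 from -0.52 to 1.274, Hp from -0.22 to 0.28, Hpx from -0.33 to 0.19, Mt1 from -0.20 to 1.17 and Mt2 from -0.17 to 2.20. DESeq2 gave no adjusted p for 4 of the genes in comparisons with the Salmon group. No paired analysis was possible because the replicate numbers only name mice in accession order and pair none of them.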

Other observations

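Besides genes of the set, a few other genes stood far above every other mouse in mouse 23. Prtn3, which codes for proteinase 3, a serine protease known from neutrophil granules, was at 17.9 CPM in mouse 23 and at most 0.881 CPM elsewhere. Its ratio of 20.3 was the highest of 12695 genes with a mean of at least 1 CPM. That mean included mouse 23, and Prtn3 reached it only through this mouse, so its rank was partly fixed by the filter. Orm3, a further orosomucoid gene with a transcript 86.4% identical to Orm1, was at 99.7 CPM and at most 29.0 CPM elsewhere. These genes were named after their values were seen.

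The protein coding genes with the pattern most like Saa1 over 20 mice, by Spearman's rho of log2 CPM among 11555 genes, were Ifi27 (0.874), Cryz (0.847), Ociad2 (0.842), Zcchc24 (0.833) and Tcn2 (0.832). Without mouse 23, Cryz (0.902) and Ifi27 (0.870) were again among the 5 highest, beside Ypel5, Ttc38 and 9030617O03Rik. Those most like Hp were Serpina3n (0.895), Ltbr (0.892), Nat9 (0.889), Rxra (0.887) and Det1 (0.886), and none of them was among the 5 highest without mouse 23, which Tbc1d16 led at 0.926. For Mt1 they were Rhbdd2 (0.892), Mepce (0.890), Plekhf1 (0.887), Usp30 (0.884) and Rnf186 (0.881), of which Plekhf1 (0.895) and Rhbdd2 (0.884) were again among the 5 highest without mouse 23. These values hold the differences between diets, and the mice of a diet share it.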
